A study of Homo sapiens with 2 samples.

Results

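Receptor tyrosine kinases that lie upstream of the kinase ACK1, and the adaptors that relay the signal of insulin and insulin-like growth factors, were examined at the RNA level in prostate cancer cells. The set comprised EGFR, ERBB2, ERBB3, ERBB4, IGF1R, INSR, MET, MERTK, IRS1 and IRS2, and its members were the lines of the gene table that carried these symbols. All 10 were found among 60671 genes, 8 of them receptors and 2 adaptors.

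The cells were C4-2B, a human castration-resistant prostate cancer (CRPC) line, cultured in medium with 10% serum and given either vehicle or (R)-9b, which inhibits ACK1, a non-receptor tyrosine kinase encoded by TNK2. The labels give 1 µM (R)-9b overnight, whereas the methods for the RNA sequencing state no dose or time. Both conditions used the same line without any engineered allele, and a single library of poly-A RNA was sequenced for each, 2 in all. The spread between replicate cultures is therefore unknown, and every interval here covers counting error in these 2 libraries only. In such bulk RNA, fewer cells that express a gene and less RNA of it per cell cannot be told apart.

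Receptor tyrosine kinases bind a growth factor outside the cell, pair with each other and phosphorylate tyrosines on their tails and on docking proteins. EGFR, ERBB2, ERBB3 and ERBB4 form the EGF receptor family, in which ERBB2 has no known ligand of its own and ERBB3 has a weak kinase and depends on its partners. INSR and IGF1R signal mainly through the insulin receptor substrates IRS1 and IRS2, which recruit PI3K and so reach AKT. ACK1 is known to be activated downstream of several of these receptors, among them EGFR, ERBB2 and MERTK, and to phosphorylate AKT and the androgen receptor.

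Several members are made as more than a single transcript, and the sequences below show the splice junctions by which the transcripts discussed later differ (GENCODE 29 transcripts on GRCh38, 5′ to 3′ on the transcribed strand). The ERBB2 pair joins a different exon, in capitals, to the same following exon at chr17:39706990-39707141, with ERBB2-201 starting from chr17:39700080-39700311 and ERBB2-204 from chr17:39699560-39699587.
ERBB2-201: CCGCGAGCACCCAAGtgtgcaccggcacag
ERBB2-204: CCTGGAAGCCACAAGtgtgcaccggcacag
The IGF1R pair differs by 3 bases at the start of exon 14 (chr15:98929558-98929660 in the longer form), in capitals, which IGF1R-217 keeps and IGF1R-216 lacks.
IGF1R-217: atgtccaggccaaaaCAGgatatgaaaact
IGF1R-216: atgtccaggccaaaagatatgaaaact
The EGFR pair parts at the end of exon 10 (chr7:55156759-55156832), after which EGFR-201 continues with the next exon and EGFR-204 reads on into the intron to a stop codon. EGFR-204 encodes a truncated extracellular part of the receptor without its kinase, and the capitals mark the bases after the shared exon.
EGFR-201: taaaggaaatcacagGGTTTTTGCTGATTC
EGFR-204: taaaggaaatcacagGTTTGAGCTGA
The INSR pair parts after exon 10 (chr19:7152726-7152927, minus strand), where INSR-201 includes the 36 bases of exon 11 (chr19:7150497-7150532) and INSR-202 skips them. These are the B and A forms of the insulin receptor, and the capitals mark the start of the next exon.
INSR-202: ggttttcgtccccagGCCATCTCGGAAACG
INSR-201: ggttttcgtccccagAAAAACCTCTTCAGG

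The gene counts that the authors deposited came to 65207444 for vehicle and 57653965 for (R)-9b, and 23446 genes had at least 10 counts over both. Genes of the mitochondrial genome took 1.49% of them in vehicle and 9.54% in (R)-9b. The counts were therefore scaled with the TMM method, and scaling by total counts would move every log2 ratio by -0.06. TNK2 itself had 6946 counts in vehicle and 5292 in (R)-9b, a log2 ratio of -0.15 (95% interval -0.21 to -0.10). The sample labels call the cells breast cancer, but 7 of 8 prostate markers were found and all 7 were expressed, with a summed level of 4578 CPM (the count scaled for library size) in vehicle and 8982 in (R)-9b. The 7 breast markers summed to 1.38 and 0.779 CPM, the 8 leukocyte markers to 0.390 and 0.655 CPM with PTPRC at 0 in both, and the 8 fibroblast and endothelial markers to 29.0 and 44.2 CPM. The part of these shifts in the results below was not tested.

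All members except ERBB4 had enough counts to be compared. Of these 9, 3 had a ratio of (R)-9b over vehicle whose whole 95% interval lay above 1 (ERBB2, IGF1R and IRS1), 5 had an interval below 1 (EGFR, ERBB3, INSR, MERTK and IRS2), and MET had an interval that included 1. At this depth the same was true of many genes: the interval lay above 1 for 29.8% of the 23446 genes and below 1 for 31.1%. These genes were not matched to the members for counts. The same members were called when all counts were halved, against 23.9% and 25.4% of genes. No member was past 2-fold in either direction, against 11.5% of genes at least 2-fold higher and 9.53% at least 2-fold lower in (R)-9b. The median log2 ratio was -0.08 over the 9 members and -0.0049 over all genes compared, and all 9 lay between the 10th and the 90th percentile of those genes, which stood at log2 ratios of -0.97 and 1.12. Over genes with at least 1000 counts in vehicle these percentiles were -0.60 and 0.48, and 7 of all 9 members lay between them. IRS1 lay above and MERTK below. MERTK and MET themselves had fewer than 1000 counts in vehicle.

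Since no replicates were made, a spread between cultures was also assumed, as a coefficient of variation added to the counting error. With 0.1, 2 members kept an interval above 1 (ERBB2 and IRS1) and 2 kept an interval below 1 (INSR and MERTK), against 17.4% and 16.3% of all genes. With 0.3, no member was left on either side, against 5.85% and 4.49% of all genes. The direction given below for EGFR, ERBB3, IGF1R and IRS2 thus rests on counting error alone.

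**Figure D1:**
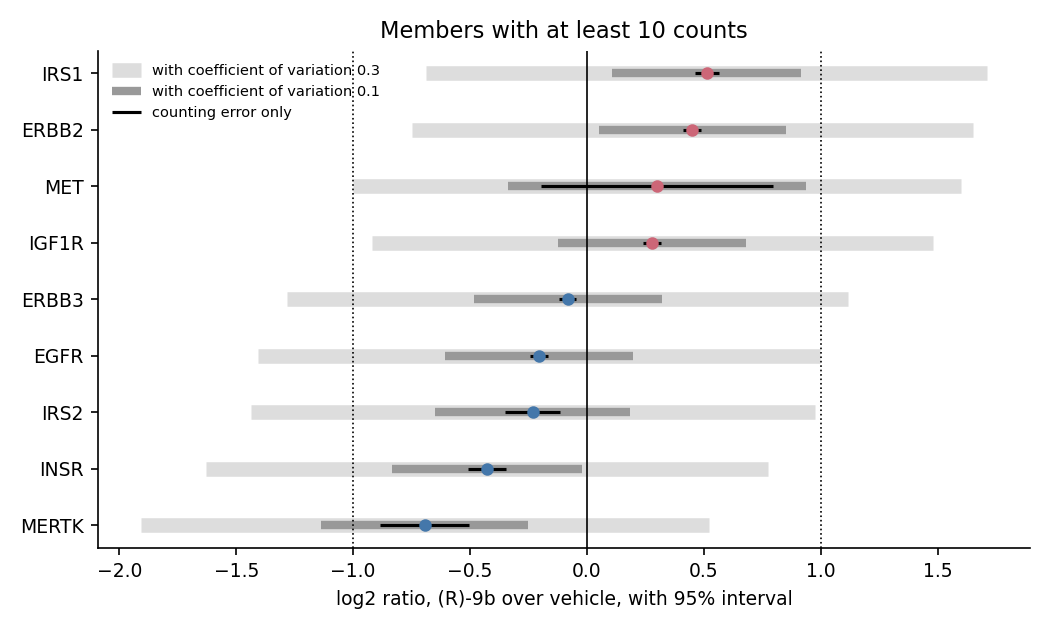
Log2 ratio of (R)-9b over vehicle for the 9 members with at least 10 counts, 1 library per condition. Points are the ratios after TMM scaling (red above 0, blue below 0), black lines the 95% interval from counting error, dark and light grey bars the interval with an added coefficient of variation of 0.1 and 0.3, and dotted lines 2-fold. With 0.3 added, every bar crosses 0.

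ERBB3, EGFR and ERBB2 were among the most abundant members. Levels of different genes were compared as RPKM, the count scaled for library size and for the length of the gene's exons. ERBB3, the partner receptor with a weak kinase, had 22.7 RPKM in vehicle (95% Poisson interval 22.3 to 23.1) and 21.4 in (R)-9b. It was followed in vehicle by EGFR at 15.3 RPKM, ERBB2 at 14.6, IGF1R at 11.1 and IRS1 at 8.40. INSR stood at 4.70 RPKM, IRS2 at 2.58 and MERTK at 2.09. MET, the receptor of hepatocyte growth factor, reached 0.147 RPKM, and ERBB4 was at 0. No neighbours in this order had overlapping counting intervals.

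In the (R)-9b library the order was ERBB3, ERBB2 at 19.9 RPKM, IGF1R at 13.4, EGFR at 13.2, IRS1 at 12.0, INSR at 3.49, IRS2 at 2.20, MERTK at 1.29, MET at 0.181 and ERBB4 at 0.0095. IGF1R and EGFR, adjacent in that order, had overlapping intervals. EGFR ranked 2 among the members in vehicle and 4 in (R)-9b. The ranks of the abundant members depended on the length used: with estimated transcript counts over transcript lengths, EGFR ranked 4 in both libraries, ERBB2 ranked 2 in vehicle and 1 in (R)-9b, and IGF1R ranked 3 in both.

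**Figure D2:**
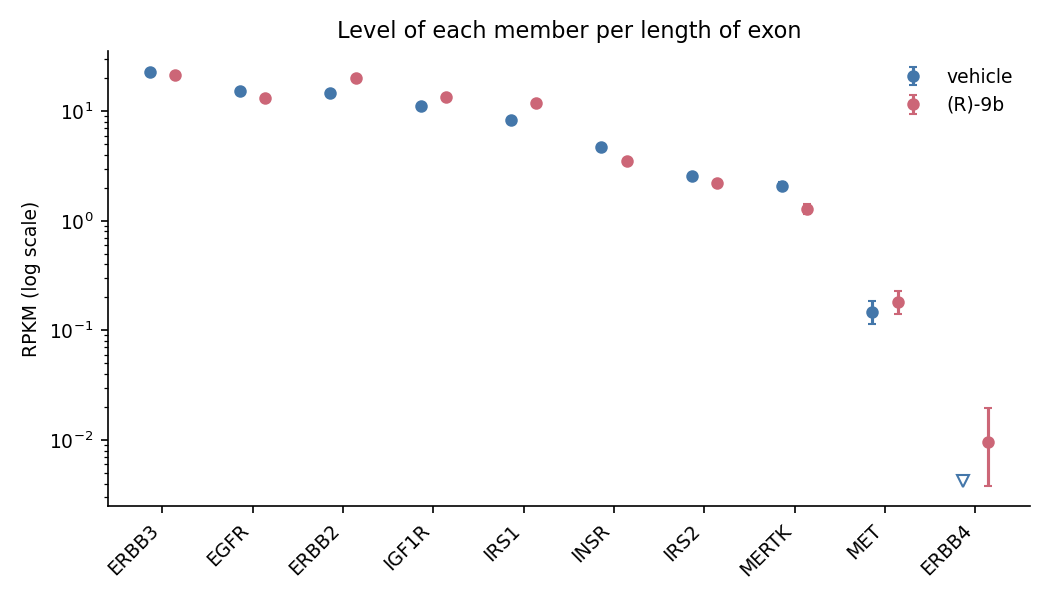
Level of each member in RPKM on a log axis in the vehicle (blue) and (R)-9b (red) library, ordered by the vehicle level. Points are single libraries, bars the 95% Poisson interval of the count, and the open triangle the upper limit for ERBB4, which had no count in vehicle. ERBB3 to IRS1 lie near 10 RPKM or above, and MET and ERBB4 lie far below the others.

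Within the EGF receptor family, ERBB2 was higher and EGFR lower in the (R)-9b library. ERBB2 (chr17:39687914-39730426, plus strand), the preferred partner of the other receptors of the family, had 10027 counts in vehicle and 11623 in (R)-9b. After scaling this was 1.37 times the vehicle level (log2 ratio 0.45, 95% interval 0.41 to 0.49), higher than the ratio of 75.4% of all genes compared. EGFR (chr7:55019021-55211628, plus strand), the receptor of EGF and TGF-alpha, had 12718 and 9351 counts, with a log2 ratio of -0.21 (-0.24 to -0.17). ERBB3 (chr12:56076799-56103505, plus strand) had 13660 and 10937 counts, with a log2 ratio of -0.08 (-0.12 to -0.05), so that it differed least between the libraries among the members with an interval on one side. ERBB4 (chr2:211375717-212538841, minus strand), a receptor of the neuregulins, had 0 and 7 counts. With the floor of 3 counts in place of 0 the ratio was 2.75, but this value is set by the floor. The 7 counts in all were too few to enter the comparison.

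The balance among the family members does not depend on the scaling between libraries. ERBB2 made up 27.8% of the summed RPKM of the 4 family members in vehicle and 36.5% in (R)-9b, EGFR 29.0% and 24.2%, and ERBB3 43.2% and 39.2%. The sum itself was 52.5 RPKM in vehicle and 54.6 in (R)-9b. Per length of exon, the ratio of ERBB2 to EGFR went from 0.956 to 1.51, a log2 difference of 0.66 (0.60 to 0.71). With estimated transcript counts over transcript lengths, ERBB2 ranked above EGFR in both libraries. The ratio of ERBB2 to ERBB3 per length of exon went from 0.643 to 0.931, a log2 difference of 0.53 (0.48 to 0.59). These pairs and those below were picked with the values known. With an assumed coefficient of variation of 0.1, the interval of the first pair stayed above 0 (0.09 to 1.22) and that of the second included it (-0.03 to 1.10).

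IGF1R and IRS1 were higher and INSR and IRS2 lower in the (R)-9b library. IGF1R (chr15:98648539-98964530, plus strand), the receptor of the insulin-like growth factors, had 10266 counts in vehicle and 10563 in (R)-9b, 1.21 times the vehicle level after scaling (log2 ratio 0.28, 0.24 to 0.32). INSR (chr19:7112255-7294034, minus strand), the insulin receptor, had 3270 and 2061 counts, 0.743 times the vehicle level (log2 ratio -0.43, -0.51 to -0.35). With an assumed coefficient of variation of 0.1 its interval ran from -0.84 to -0.02. The size for INSR depended on the table used, since the estimated transcript counts, from which the exon 11 form shown above was not analysed, gave a log2 ratio of -0.93.

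IRS1 (chr2:226731317-226799759, minus strand) had the highest ratio of the members. It had 5569 counts in vehicle and 6732 in (R)-9b, 1.43 times the vehicle level (log2 ratio 0.51, 0.46 to 0.56), higher than the ratio of 77.6% of all genes compared. IRS2 (chr13:109752698-109786568, minus strand), the related docking protein, had 1397 and 1009 counts, with a log2 ratio of -0.23 (-0.35 to -0.11). Both pairs therefore moved apart between the libraries. IGF1R made up 70.2% of the summed RPKM of the receptor pair in vehicle and 79.3% in (R)-9b, and the log2 difference of the IGF1R to INSR ratio was 0.71 (0.62 to 0.80), or 1.21 with the estimated transcript counts. IRS1 made up 76.5% and 84.5% of the adaptor pair, with a log2 difference of 0.74 (0.62 to 0.87). With an assumed coefficient of variation of 0.1 both intervals stayed above 0, at 0.13 to 1.28 and 0.16 to 1.32.

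MERTK had the lowest ratio of the members and MET was barely detected. MERTK (chr2:111898479-112029561, plus strand), a receptor of the TYRO3, AXL and MERTK family that binds GAS6 and protein S, had 654 counts in vehicle and 343 in (R)-9b. This was 0.618 times the vehicle level (log2 ratio -0.69, -0.89 to -0.50), lower than all but 15.2% of the genes compared. The interval stayed below 0 with a coefficient of variation of 0.1 (-1.14 to -0.25). MERTK made up 32.9% of the summed RPKM of its family in vehicle and 15.8% in (R)-9b, while TYRO3, the most abundant of the family, made up 66.7% and 84.1%. The log2 difference of the TYRO3 to MERTK ratio was 1.39 (1.19 to 1.59). MET (chr7:116672390-116798386, plus strand) had 69 and 72 counts, with a log2 ratio of 0.30 (-0.20 to 0.80), so no difference was detectable at this depth. The transcript table gave MET an estimate of 9.64 in vehicle, all on MET-204, and of 27 in (R)-9b, all on MET-202, with a log2 ratio of 1.68 (0.59 to 2.90 by counting error, without the error of the estimates).

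The transcript table, which holds estimated counts, showed a single dominant form for most members. EGFR-201 held 98.3% of the EGFR estimate in both libraries and IRS1-201 99.5% of that of IRS1 in both. All of the MERTK estimate was on MERTK-203, with 217 in vehicle and 113 in (R)-9b. EGFR-204, the truncated form, was estimated at 44.1 in vehicle and 14.4 in (R)-9b, or 0.895% and 0.393% of the gene. Such estimates carry an error of assignment that the table does not give, so the shares are given without an interval.

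ERBB2, ERBB3 and IGF1R were more divided. ERBB2-201 held 66.1% of the ERBB2 estimate in vehicle and 70.0% in (R)-9b, and ERBB2-218 6.87% and 12.3%. ERBB2-204, whose start differs as shown above, was estimated at 318 in vehicle, 8.64% of the gene, and was listed at 0 in (R)-9b. A form of ERBB3 behaved likewise: ERBB3-203 was at 243 in vehicle and listed at 0 in (R)-9b, and ERBB3-219, annotated as a target of nonsense-mediated decay, was at 227 and 30.6. ERBB3-201, the full-length form, held 78.0% and 79.5%. For IGF1R, the form without the 3 bases, IGF1R-216, held 19.5% of the estimate in vehicle and 30.2% in (R)-9b, and IGF1R-217 64.4% and 54.8%. The coding lengths of these IGF1R forms are 4098 and 4101 bases, so that only reads over the junction shown above tell them apart.

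**Figure D3:**
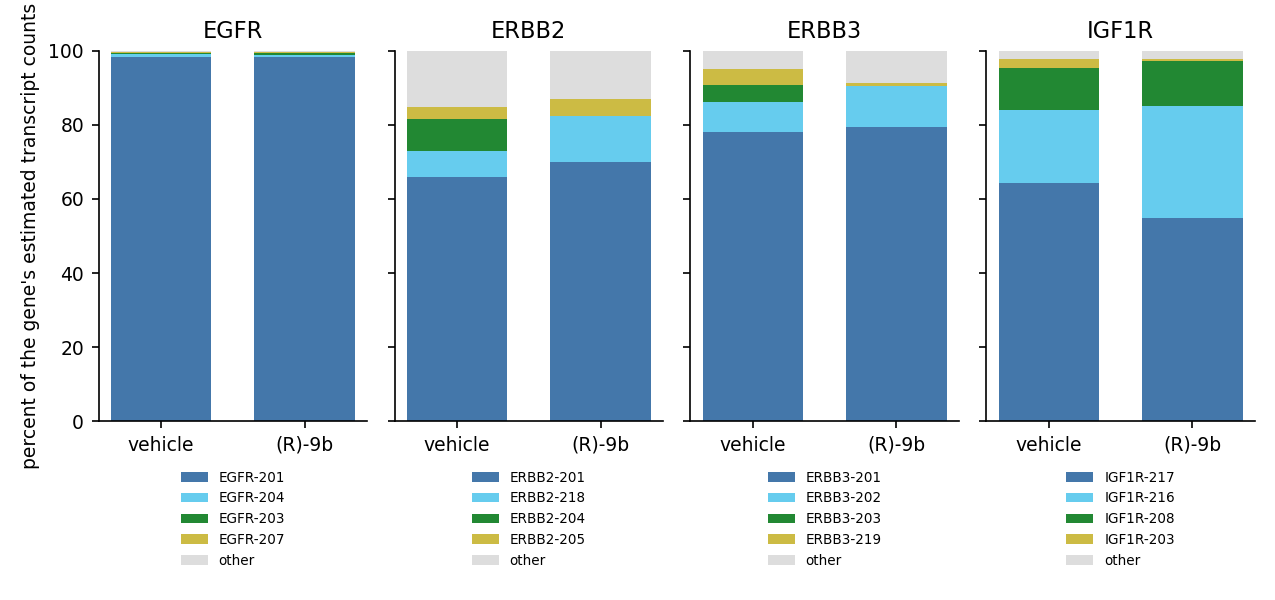
Share of each gene's estimated transcript counts, in percent, held by its 4 leading transcripts and by all others (grey) in the vehicle and (R)-9b library, 1 library each and without error bars. EGFR is nearly all EGFR-201 in both, whereas ERBB2-204 (8.64%) and ERBB3-203 (4.57%) are listed at 0 in (R)-9b and IGF1R-216 holds a larger share in (R)-9b.

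For 7 members the gene table held 2.5 to 3.04 counts per estimated transcript count in either library. For INSR this number was 4.33 in vehicle and 6.17 in (R)-9b. For MET, with few counts and 1 transcript not analysed, it was 7.16 and 2.67, so that the 2 tables give different ratios for these genes. GENCODE 29 lists 7 transcripts of INSR, of which INSR-201, the form with exon 11, was not analysed here. INSR-202, the form of INSR without exon 11, held 97.2% and 97.9% of the INSR estimate, which therefore gives no balance of the forms.

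Genes overlapping a member, and the nearest protein-coding gene on either side with at least 10 counts, were compared in the same way. MIEN1, which overlaps ERBB2 on the opposite strand, had 3149 and 3364 counts (log2 ratio 0.33, 0.26 to 0.40), and GRB7, the next gene after ERBB2, 452 and 475 (0.31, 0.12 to 0.50), while PGAP3, which also overlaps ERBB2, had 1135 and 1001 (0.06, -0.07 to 0.18). PNMT, the nearest such gene before ERBB2, had only 11 and 0 counts, with an interval below -1.09. The methods state that gene counts came from unambiguous reads, but the strand setting of the counting is not given in the sources used here. Reads of ERBB2, MIEN1 and PGAP3 may therefore have been discarded where the genes overlap. SEC61G and LANCL2, 259 and 154 kb from EGFR, had log2 ratios of -0.23 and -0.26, close to that of EGFR. EGFR-AS1, which overlaps EGFR, had 23 and 27 counts. ARRDC4, the nearest such gene before IGF1R at a distance of 675 kb, had 327 and 683 (1.30, 1.11 to 1.49). PA2G4, 0.814 kb after ERBB3, had 10151 and 10087 counts (0.23, 0.19 to 0.27). RPS26, before ERBB3, had a log2 ratio of 0.06 (0.03 to 0.08). ERBB3 shares its strand with an overlapping gene model, AC034102.2, which had no count in either library, so ambiguous reads of ERBB3 may have been discarded. Of the genes on either side of IRS1, RHBDD1 at 35.8 kb had a log2 ratio of -0.61 (-0.70 to -0.52). CUL3 at 2146 kb had 0.01 (-0.05 to 0.07). ANAPC1 and TMEM87B, on either side of MERTK, had 0.11 and 0.30, and AC104651.1, a pseudogene that overlaps MERTK on the opposite strand, had 38 and 22 counts (-0.55, -1.38 to 0.24).

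The members were next set among the other receptor tyrosine kinases. Of 58 such genes, 44 had at least 10 counts. Among the 7 receptors of the set that were compared, 2 were higher and 4 lower in (R)-9b by counting error, with a median log2 ratio of -0.08 and none past 2-fold. Of the other 37, 13 were higher and 10 lower, with a median of 0.02, and 9 were past 2-fold. Some of these 9 had few counts and an interval that included a ratio of 1. Over all genes compared, not matched for counts, 29.8% were higher and 31.1% lower by counting error. At least 2-fold higher were 11.5% of all genes, and at least 2-fold lower 9.53%. FGFR3, a fibroblast growth factor receptor, had 908 counts in vehicle and 2119 in (R)-9b (log2 ratio 1.46, 1.35 to 1.57), FGFR1 had 425 and 776 (1.11), and the ephrin receptor EPHA7 had 4 and 39 (3.52, 2.05 to 5.47). EPHA6 had 5841 and 1727 (-1.52, -1.60 to -1.44), the collagen receptor DDR2 274 and 88 (-1.40) and FGFR2 529 and 211 (-1.09). The 7 compared receptors of the set held 31.3% of the summed RPKM of all receptor tyrosine kinases in vehicle and 32.7% in (R)-9b.

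**Figure D4:**
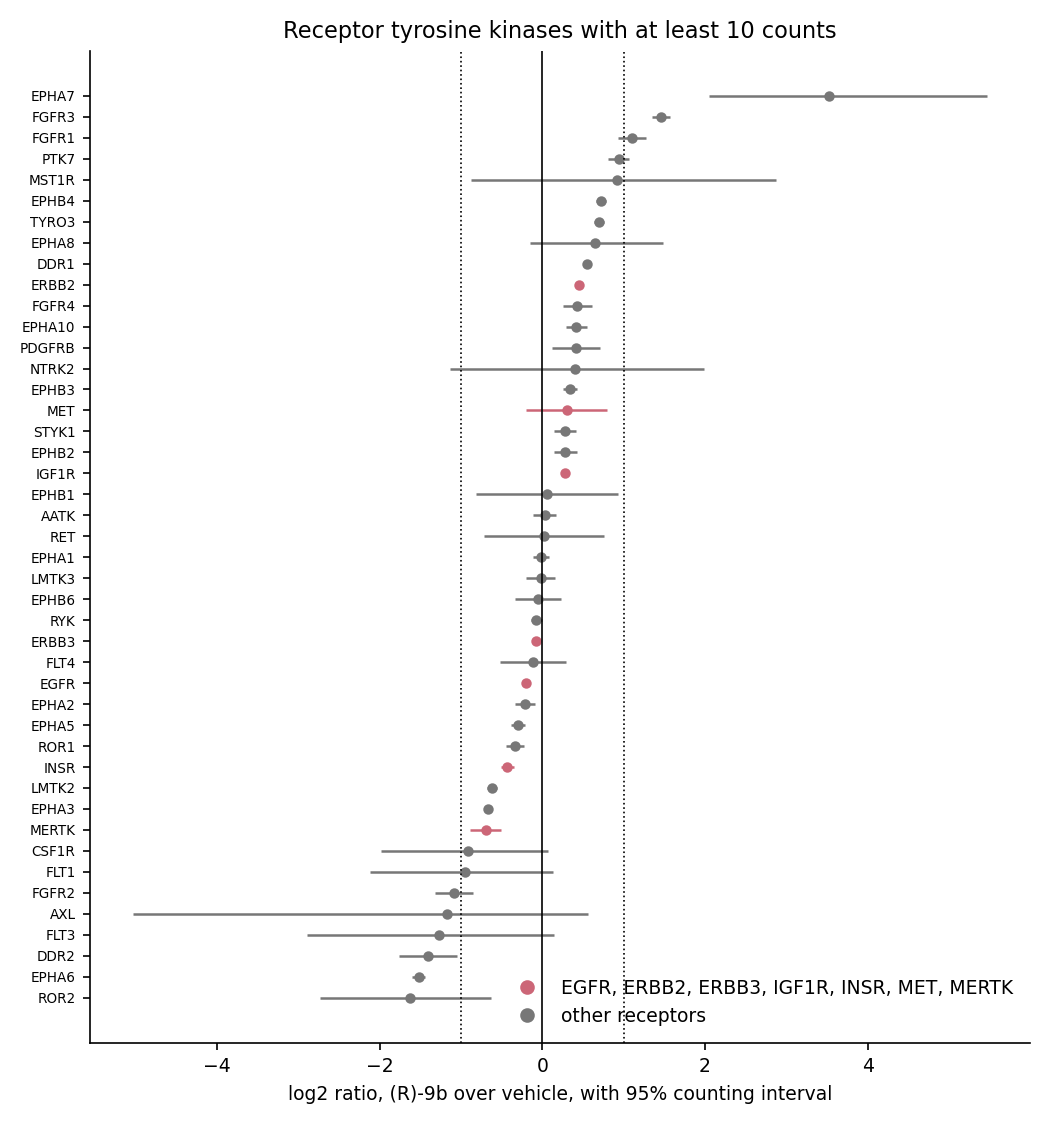
Log2 ratio of (R)-9b over vehicle for the 44 receptor tyrosine kinases with at least 10 counts, 1 library per condition, with the members in red and the others in grey. Lines are 95% counting intervals and dotted lines 2-fold. The 7 members lie between -0.69 and 0.45, and the 9 receptors past 2-fold are all others. Over all genes compared, 11.5% were at least 2-fold higher and 9.53% at least 2-fold lower.

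The lists of related genes that follow are counted by the same intervals, of which 29.8% lay above and 31.1% below a ratio of 1 over all genes, or 17.4% and 16.3% with a coefficient of variation of 0.1. Genes with many counts have narrower intervals and are called more readily, and no share matched for counts was computed. Over genes with at least 1000 counts in vehicle the median log2 ratio was -0.06. Ligands of the EGF family were mostly scarce. Of 11 genes, 8 were compared, of which 2 were higher and 4 lower, with a median log2 ratio of -0.51. EGF had 1150 counts in vehicle and 301 in (R)-9b (log2 ratio -1.70, -1.88 to -1.51), HBEGF 493 and 283 (-0.56), and the neuregulin NRG3 51 and 4 (-3.43, -5.36 to -1.99). TGFA had 243 and 349 (0.76, 0.52 to 1.00) and EPGN 16 and 32 (1.24, 0.33 to 2.20). With a coefficient of variation of 0.1 the counts were again 2 and 4. The 2 higher ligands became 1 with halved counts or a minimum of 50 counts and 0 with estimated transcript counts.

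In the list of insulin-like growth factors, their binding proteins and IGF2R, 7 of 10 genes were compared, 3 higher and 1 lower, with a median log2 ratio of 0.34. IGFBP3, which binds the growth factors outside the cell, had 16277 counts in vehicle and 27749 in (R)-9b (log2 ratio 1.01, 0.98 to 1.04), IGFBP5 49 and 80 (0.95), and IGF1, a ligand of IGF1R, 677 and 728 (0.34, 0.19 to 0.50). IGF2R, which takes IGF2 to the lysosome and carries no kinase, had 22805 and 12370 (-0.64, -0.68 to -0.61). With a coefficient of variation of 0.1, 2 were higher and 1 lower. Insulin had no count in either library.

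The list of ligands of MET and of the MERTK family, with the proteases and inhibitors that process hepatocyte growth factor, had 10 of 11 genes compared, 5 higher and 1 lower, with a median log2 ratio of 0.68. GAS6, the ligand of MERTK, had 586 counts in vehicle and 918 in (R)-9b (log2 ratio 0.89, 0.73 to 1.04), and TUB, also described as a MERTK ligand, 2468 and 4910 (1.23, 1.16 to 1.30). MST1, which binds a relative of MET, had 413 and 627 (0.84). On the opposite strand MST1 overlaps APEH and RNF123, and TUB overlaps RIC3. Reads of MST1 and TUB may therefore have been discarded as ambiguous. SPINT1, an inhibitor of the activating proteases, had 19852 and 14554 (-0.21, -0.24 to -0.18). With a coefficient of variation of 0.1, 5 were higher and 0 lower. Hepatocyte growth factor itself had no count in either library.

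Docking proteins and adaptors other than IRS1 and IRS2 had 9 higher and 9 lower of 30 compared among 32 genes, shares close to those of all genes, and a median log2 ratio of -0.06. With a coefficient of variation of 0.1, 6 were higher and 4 lower. GAB2 and GAB1, docking proteins that recruit PI3K and SHP2, had 663 and 199 counts (log2 ratio -1.50, -1.73 to -1.27) and 346 and 123 counts (-1.25, -1.56 to -0.95) in vehicle and (R)-9b. GRB10, which restrains INSR and IGF1R, had 13108 and 6422 (-0.79, -0.83 to -0.75). PLCG1, a phospholipase bound by active receptors, had 4627 and 6901 (0.81, 0.76 to 0.87), DOK3 333 and 597 (1.08) and SHC4 269 and 760 (1.74). On the opposite strand SHC4 overlaps the much more abundant EID1, and PLCG1 overlaps ZHX3, which had 3608 and 3609 counts.

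Genes that restrain the receptors or move them through the cell had 17 of 32 lower and 8 higher, with a median log2 ratio of -0.25. With a coefficient of variation of 0.1, these were 11 and 1. CBLB, a ubiquitin ligase of activated receptors, had 1834 counts in vehicle and 462 in (R)-9b (log2 ratio -1.75, -1.90 to -1.60), NEDD4, another ubiquitin ligase, 2122 and 660 (-1.45, -1.58 to -1.32), and SOCS1 93 and 10 (-2.98, -4.09 to -2.04). SOCS2 had 834 and 2049 (1.53, 1.42 to 1.65), the receptor phosphatase PTPRF 61260 and 66792 (0.36, 0.35 to 0.38) and RAB11A, which returns receptors to the surface, 8523 and 8910 (0.30). On the opposite strand SOCS1 overlaps RMI2, which had 874 and 716 counts, and RAB11A overlaps DENND4A, which had 1760 and 969.

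Of the PI3K and AKT pathway, 30 of 32 genes were compared, 10 higher and 16 lower, with a median log2 ratio of -0.10. A coefficient of variation of 0.1 left 5 and 8. INPP4B, a lipid phosphatase of the pathway, had 2680 counts in vehicle and 1273 in (R)-9b (log2 ratio -0.84, -0.93 to -0.74). EIF4EBP1, the repressor of translation that mTOR inactivates, had 18919 and 8694 (-0.88, -0.92 to -0.85). INPPL1, another lipid phosphatase, had 6967 and 12366 (1.07, 1.02 to 1.11) and the regulatory subunit PIK3R3 2732 and 3726 (0.69). Another regulatory subunit, PIK3R2, had 0 and 15 counts, and a second gene model, AC007192.1, overlaps it on the same strand, so that reads may have been discarded as ambiguous and its level is uncertain.

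**Figure D5:**
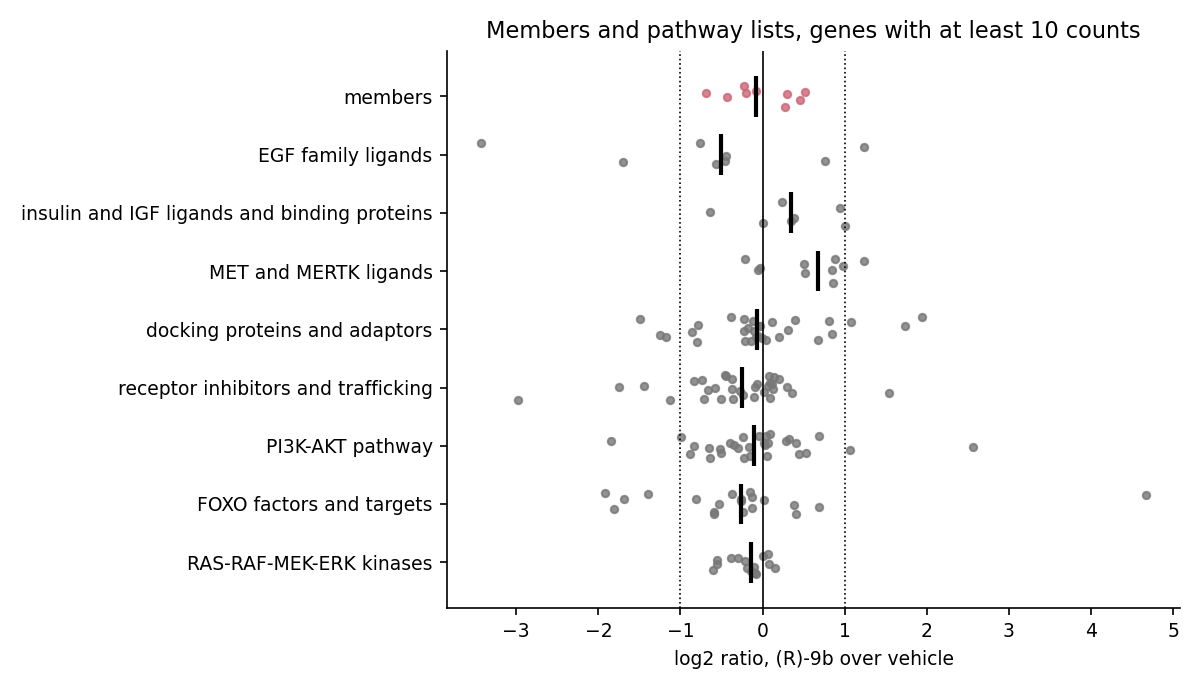
Log2 ratio of (R)-9b over vehicle for every gene with at least 10 counts in the members (red) and in 8 lists of related genes (grey), 1 library per condition. Each point is a gene, with 3 counts in place of a lower count, thick bars are medians and dotted lines 2-fold; the members span -0.69 to 0.51, less than any list but that of the RAS, RAF, MEK and ERK genes.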

How the data were processed

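RNA sequencing of vehicle and (R)-9b treated C4-2B cells was analysed, 1 library each, grouped by the sample titles. Per the labels and the methods, the authors aligned paired-end reads with STAR and counted them per gene. The submitters' processing notes name STAR 2.5.1a, featureCounts 1.4.6-p5, Salmon 0.8.2 and hg38. The methods name another STAR version, and neither source says which made each table. The deposited gene counts are whole numbers without normalization. The authors also deposited the gene values as CPM (counts over the library total) and as log2 CPM with an undescribed moderation, both used only as alternatives. The authors' table of estimated counts per transcript, with no normalization, served for transcript shares and as an alternative. Of 60871 lines, 200 repeated a gene and were dropped.

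Counts were scaled with TMM (edgeR 4.0.16, R 4.3.3). The ratio of each gene with at least 10 counts over both libraries was given an exact Clopper-Pearson 95% interval (Python 3.11.15, scipy 1.17.1). A gene was called higher or lower where the whole interval lay on one side of a ratio of 1, and 3 counts served as floor. No test of the conditions was possible with 1 library each. The depth, 65207444 and 57653965 counts, makes intervals of abundant genes narrow. Low counts were mostly even (72.2% and 70.3% of values of 1 to 20), so halved counts were an alternative. If both mates of a read pair were counted, which the sources do not state, the main intervals are too narrow. Those from halved counts would then apply. RPKM used the union of annotated exons (GENCODE 29). The alternatives were other scalings (total counts, DESeq2 1.42.0 size factors, upper quartile, TMM without mitochondrial genes), the other deposited tables, other minimum counts and an added coefficient of variation.

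The members and lists were chosen with earlier results of these data known. Besides the members, TNK2 and neighbouring genes, up to 3 genes per list and direction were named, those whose interval lay furthest from no difference, and a gene that this rule covers is not reported here. Genes with no count in either library and overlapping genes were named after their values were seen. Figures were drawn with matplotlib 3.10.9.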

Additional observations from a re-analysis of the deposited data

How the results depend on the processing

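With 1 library per condition, the spread between cultures limits every statement, and for MET and ERBB4 the depth does too. No paired analysis was possible because each condition had 1 library, and no replicate could be left out. No log2 ratio of a member changed sign under any alternative. Across them the ratio ran from -0.27 to -0.17 for EGFR, 0.39 to 0.49 for ERBB2, -0.16 to -0.05 for ERBB3, 0.22 to 0.32 for IGF1R, -0.93 to -0.39 for INSR, 0.24 to 1.68 for MET, -0.75 to -0.66 for MERTK, 0.45 to 0.55 for IRS1 and -0.29 to -0.20 for IRS2, with the far ends for INSR and MET from the estimated transcript counts. Of the 3 members above and 5 below a ratio of 1, 2 and 2 were left with a coefficient of variation of 0.1 and 0 and 0 with 0.3. Genes of the pathway lists and the other receptor tyrosine kinases, without repeats, had 54 intervals above 1, 31 with 0.1 and 7 with 0.3. Their intervals below 1 numbered 82, with 45 and 14 left. The count of members past 2-fold, 0 as reported, was 1 with estimated transcript counts (MET, from its partial estimate) and 1 with a minimum of 1 count (ERBB4, from its floor). The other 49 values of these counts stayed within 1.5 times those reported. The cause of these differences was not tested beyond what each alternative itself changes.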

Other observations

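FOXO transcription factors, which AKT holds out of the nucleus, are known activators of some members among other genes. Whether they had a part in the ratios of the members was not tested. Of a list of 22 FOXO factors and genes they are known to activate, none a member, 20 had at least 10 counts, of which 3 had an interval above and 15 an interval below a ratio of 1, with a median log2 ratio of -0.26. Over all genes compared, not matched for counts, these shares were 29.8% and 31.1%. With a coefficient of variation of 0.1 added, 2 and 8 were left, against 17.4% and 16.3% of all genes. With 0.3, 1 and 4 were left, against 5.85% and 4.49% of all genes. GADD45A, a stress-response gene, had 4799 counts in vehicle and 1072 in (R)-9b (log2 ratio -1.92, 95% interval -2.02 to -1.83), KLHL24 2999 and 789 (-1.69), and FBXO32, a ubiquitin ligase subunit of muscle wasting, 483 and 117 (-1.81). TXNIP, which inhibits thioredoxin and glucose uptake, went the other way, with 147 and 3188 counts (4.68, 4.44 to 4.93), as did FOXO6 with 395 and 541 (0.69) and PIK3IP1 with 580 and 652 (0.41).

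The RAS, RAF, MEK and ERK genes, which carry the other main branch of receptor signalling, all had at least 10 counts. Of these 15, 2 were higher and 10 lower, with a median log2 ratio of -0.14 and none past 2-fold. Among all genes compared, not matched for counts, 29.8% were higher and 31.1% lower. The shares at least 2-fold higher and lower were 11.5% and 9.53%. A coefficient of variation of 0.1 left 0 higher and 3 lower, against 17.4% and 16.3% of all genes. With 0.3 none was left on either side, against 5.85% and 4.49% of all genes. Scaling by total counts or by DESeq2 size factors gave 1 higher and 11 lower. BRAF, a kinase activated by RAS, had 3110 counts in vehicle and 1731 in (R)-9b (log2 ratio -0.61, -0.69 to -0.52), NF1, which turns RAS off, 6426 and 3694 (-0.56), and SHOC2, a scaffold for RAF activation, 4901 and 2824 (-0.56). On the opposite strand BRAF overlaps NDUFB2, which had 3823 and 3873 counts. HRAS had 5186 and 4884 (0.15, 0.09 to 0.21) and NRAS 4747 and 4212 (0.07, 0.01 to 0.13).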
